A study of Mus musculus with 4 samples.

Results

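The long intergenic noncoding RNA (lincRNA) probes of the array were examined, which are the non-control probes whose name begins with A_30_P. They number 16251 of the 55681 non-control probes, or 29.2%, and the remaining 39430 probes served as the comparison. The tissue was brown adipose tissue (BAT) of male Tg mice at 8 weeks of age. Every mouse, vehicle-treated or AP-treated, carried the Fv2E-PERK transgene, in which the kinase domain of PERK is fused to a domain that the ligand AP20187 (AP) dimerizes. Because the maP2 (Fabp4) promoter drives it, the transgene is also active in macrophages, and no mouse without the transgene was on an array. One group of 2 mice received vehicle and the other group of 2 mice received AP into the peritoneum, and BAT was taken 12 h later. The dose of AP is 1 ng/g in the sample labels and 0.05 mg/kg in the legend of the study.

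LincRNAs are transcripts that are spliced and polyadenylated like mRNAs but lie between protein-coding genes and encode no known protein. They are usually less abundant than mRNAs and more restricted to particular tissues, and some act in the nucleus on chromatin or as scaffolds of nuclear bodies. PERK phosphorylates eIF2α and starts the integrated stress response (ISR), in which translation of most mRNAs falls and ATF4 induces genes through composite sites called C/EBP-ATF response elements (CARE).

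The array design names 16181 of the lincRNA probes by a chromosome interval and a strand (F or R), 13 by an interval alone and 57 by an RNA such as NEAT1. The intervals are in the mouse build mm9, and the gene annotation at these intervals was not used here because the tables at hand are of another build. They formed 3543 regions, of which 1067 had probes to both strands. A region on 1 strand was covered by 1 to 10 probes with a median of 3, and the median interval was 7304 bases, with 62 bases the shortest. Overlapping intervals of a strand merged into 3362 loci, so neighbouring probes often share a transcript and were not counted as independent.

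To show where transcription of well-known members starts, the promoter windows of Malat1 (called NEAT2 on the array), Tug1 and Nron are given from RefSeq on GRCm38.p6, as 250 bases upstream in lower case and the first 50 bases from the annotated start in capitals, 5′ to 3′ on the strand of the RNA. These are 3 RNAs that members measured with more than 1 tested probe each. The Malat1 window is chr19:5802623-5802922 on the minus strand, the Tug1 window is chr11:3648765-3649064 on the minus strand and the Nron window is chr2:33805566-33805865 on the plus strand.
Malat1: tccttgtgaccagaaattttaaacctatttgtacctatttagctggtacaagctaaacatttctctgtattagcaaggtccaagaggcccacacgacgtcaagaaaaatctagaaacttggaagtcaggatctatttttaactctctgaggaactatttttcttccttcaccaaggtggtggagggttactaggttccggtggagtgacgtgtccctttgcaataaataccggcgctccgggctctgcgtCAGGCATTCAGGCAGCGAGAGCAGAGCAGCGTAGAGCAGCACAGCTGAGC
Tug1: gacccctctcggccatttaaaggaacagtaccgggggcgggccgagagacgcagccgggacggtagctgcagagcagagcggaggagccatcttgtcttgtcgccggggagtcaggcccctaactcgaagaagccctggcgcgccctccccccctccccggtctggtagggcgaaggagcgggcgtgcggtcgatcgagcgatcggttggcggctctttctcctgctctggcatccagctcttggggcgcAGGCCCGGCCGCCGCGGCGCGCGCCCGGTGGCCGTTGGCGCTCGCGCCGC
Nron: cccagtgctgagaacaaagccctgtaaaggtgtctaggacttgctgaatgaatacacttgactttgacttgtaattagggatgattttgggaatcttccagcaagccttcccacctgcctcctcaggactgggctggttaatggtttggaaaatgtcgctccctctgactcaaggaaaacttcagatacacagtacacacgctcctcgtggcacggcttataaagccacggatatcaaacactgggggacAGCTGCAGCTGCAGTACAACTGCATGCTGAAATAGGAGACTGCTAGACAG
The letters TGATGNAAT, a form of the CARE site, were searched on both strands in windows of this length, and other forms were not. These letters were in 317 of 32851 promoters, or 0.965%. They were in 0 of the 6 windows at hand for RNAs named on these probes (Malat1, Tug1, Nron, Kcnq1ot1, Pinc and Xist). With so low a share over all promoters, 0 of 6 does not set these RNAs apart. The windows differed in composition, since the Tug1 window held 37 CG dinucleotides against 10 for Malat1 and 5 for Nron, with a median of 7 over all promoters.

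The 4 arrays shared 1 slide and 1 scan, and the vehicle and AP arrays lay at different positions, so position and treatment cannot be told apart. No spot was saturated. Ucp1, the uncoupling protein of thermogenesis, was bright on every array, at 10.4, 9.66, 9.66 and 10.2 on the log2 scale. These are levels over each array's own 75th percentile, in the order vehicle 1, vehicle 2, AP 1 and AP 2, which is kept below for all values by mouse. The medians of the 10 brown adipocyte genes listed were 7.10, 6.95, 7.21 and 7.40, but not all of them were bright. Prdm16 was at 0.56, 1.24, 0.51 and 0.86. Dio2 was at 0.49, 1.53, -1.78 and 3.33, so that the AP-treated mice lay far apart. As a check of the treatment, 7 of 8 ISR target genes were higher with AP, 5 of them at an unadjusted limma p under 0.05. Markers of other cell types also differed between mice of a group. All 10 skeletal muscle genes were highest in vehicle 2 and lowest in vehicle 1, with summed linear levels of 45.7, 863, 539 and 288. Of these genes, Mylpf was well above background on only 3 arrays and was at -5.02 in vehicle 1. Likewise, 8 of 8 measurable lymphocyte and MHC class II genes were highest in vehicle 2, with summed linear levels of 29.7, 99.7, 36.1 and 34.2, whereas Cd79a, a subunit of the B cell receptor, was not well above background on any array. In bulk tissue, fewer cells of a type and less RNA per cell cannot be told apart.

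Fewer lincRNA probes than other probes were detected in BAT, and the share depended on the flag. On the arrays, 25.2% and 26.3% of lincRNA probes were well above background with vehicle, by the flag of the image software. With AP the shares were 23.4% and 24.4%. The same flag held for 54.0%, 56.5%, 53.9% and 53.8% of the other probes. Both AP-treated mice thus lay below both vehicle-treated mice for lincRNA probes, by 1.87 percentage points on average, and the other probes differed by 1.37 points in the same direction. An exact two-sided permutation test gave p = 0.333 for both classes, the smallest value that 2 against 2 mice allow. By the looser flag for positive and significant signal, 50.8%, 52.6%, 47.3% and 50.2% of lincRNA probes were detected, against 70.1%, 72.1%, 68.8% and 69.8% of the other probes. By the stricter flag, 11084 lincRNA probes (68.2%) were well above background in 0 mice and 3224 (19.8%) in all 4 mice, against 39.9% and 50.1% of the other probes.

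A probe entered the comparison when both mice of a group were well above background, which 3831 lincRNA probes (23.6%) and 21139 other probes (53.6%) met. Of these lincRNA probes, 3224 entered through both groups, 437 through the vehicle group alone and 170 through the AP group alone. The tested probes lay in 1753 regions (49.5%). The brightest of them by mean over the 4 arrays were A_30_P01031448 on chromosome 14, at 9.11, 8.95, 9.02 and 8.85, and A_30_P01025225 on chromosome 4, at 8.95, 8.69, 8.73 and 8.67. Their groups overlapped, and the 6 brightest members had log2 fold changes between -0.20 and -0.09. Brightness also depends on how well a probe binds, so it does not rank the RNAs.

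No lincRNA probe passed an adjusted p of 0.05 (limma, Benjamini-Hochberg over the 24970 probes tested), as was the case for all probes (0% called). The adjusted p was 0.80 at its lowest. Before adjustment, 288 lincRNA probes (7.52%) had a limma p under 0.05, where the share over all probes tested was 6.07%, and 284 did so by the methods' t-test, with 0 after adjustment. This excess was not stable, since the share was 5.30% of lincRNA probes against 6.06% of other probes with an intensity trend in limma, 5.52% against 5.76% among probes well above background on all arrays and 3.73% against 6.84% with normexp. By brightness, it was 12.9% against 11.5% in the dimmest of 3 equal parts of the lincRNA probes, 5.48% against 5.80% in the middle part and 4.15% against 4.76% in the brightest. The 288 comprised 109 probes that were higher with AP (2.85%, against 3.3% of all probes) and 179 that were lower (4.67%, against 2.77%). This balance depends on scaling, since centring the arrays on their medians gave 138 higher and 113 lower probes, and the authors' log2 values gave 68 higher and 346 lower. With a change of at least 2-fold as well, 101 probes were left (2.64%, against 2.32% of all probes), of which 48 were higher (1.25%, against 1.3% of all probes) and 53 lower (1.38%, against 1.02%). The shares of all probes are near those of the lincRNA probes for the higher and 2-fold calls.

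Without regard to a p, the groups did not overlap at 1618 lincRNA probes (42.2%, against 38.3% of all probes). The AP group lay above at 539 (14.1%, against 18% of all probes) and below at 1079 (28.2%, against 20.4%). Correspondingly, 59.5% of tested lincRNA probes had a lower mean with AP, against 49.9% of other probes. The counts above and below depend on processing. They were 703 and 755 with the median of each array, 563 and 665 with normexp, and 304 and 1577 with the authors' log2 values. The median log2 fold change was -0.094 for lincRNA probes and 0.0008 for other probes, with quartiles of -0.332 and 0.174 for lincRNA probes. The shift is small beside the median standard error of a single probe, 0.26. It was also not stable, since with normexp background correction the medians were 0.014 and 0.013, and with no filter on dim probes they were 0.110 and 0.085, so that the direction turned. With quantile normalization they were -0.075 and -0.0017, and with an array scaled on the probes detected everywhere -0.130 and -0.035. With the median of each array they were -0.0097 and 0.086.

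The arrays did not contribute alike to this shift. AP 1 was the lowest array at 35.2% of lincRNA probes against 26.8% of other probes, and vehicle 1 was the highest at 36.2% against 29.0%. AP 1 was at least 2-fold below each other array at 92 lincRNA probes (2.40%, against 1.17% of other probes), and AP 2 at 12. Without AP 1 the median log2 fold change of the lincRNA probes was -0.036, and without AP 2 it was -0.140. By brightness, the medians were -0.142 in the dimmest of 3 equal parts of the lincRNA probes, -0.089 in the middle part and -0.065 in the brightest, and they were -0.103, -0.019 and 0.014 for other probes of the same brightness. Across chromosomes, the median was lowest on chromosome 16 at -0.178 and highest on chromosome X at 0.0014, with 145 and 119 probes tested, and it was -0.097 for strand F and -0.088 for strand R.

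Next, probes of the same region were compared with each other, because several probes to 1 transcript give repeated readings in the same mice. Of 890 regions with at least 2 tested probes on a strand, 492 (55.3%) had all fold changes in 1 direction. Pairs of probes on the same strand of a region had the same sign in 70.0% of 3185 pairs, and their log2 fold changes correlated at a Pearson's r of 0.52. Pairs on opposite strands had the same sign in 57.4% of 1866 pairs, with an r of 0.12. These are descriptions across probes that share mice and arrays. The 288 probes with a p under 0.05 lay in 236 loci, and 27 regions held at least 2 of them on a strand.

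Among regions outside chromosome 18 whose tested probes all went in 1 direction, the fit ranked first chr12:117623500-117643575 (mm9) on strand R, which is 20076 bases long and had 4 of its 5 probes tested. Probe A_30_P01031715 was at -3.78, -3.33, -1.44 and -0.74, and A_30_P01027809 at -3.27, -3.92, -1.49 and -0.56. The AP group lay above the vehicle group at these and at the other tested probes of the region. Each had an adjusted p of 0.80 (limma), and only 1 of the vehicle-treated mice was well above background at each, vehicle 2 at A_30_P01031715 and vehicle 1 at A_30_P01027809. All 4 tested probes entered the comparison through the AP group alone, so that a higher level with AP followed from the filter. The other tested probes, A_30_P01021644 and A_30_P01021843, were not well above background in either vehicle-treated mouse. From the lowest signal that counted as detected, which was -3.65, -3.93, -3.75 and -3.66 on the arrays, they were at least 4.47-fold and at least 1.68-fold higher with AP. Of the 4 probes to the opposite strand, 0 were tested.

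A brighter region with lower values in the AP group was chr5:35975265-35982561 (mm9) on strand F, which was well above background in all mice at all of its 4 probes. Probe A_30_P01024606 was at 4.78, 3.97, 2.98 and 3.41, and A_30_P01021593 at 3.39, 2.59, 1.70 and 2.05. Vehicle 1 was the highest and AP 1 the lowest array at each of the 4 probes, and the groups did not overlap. The log2 fold changes ran from -1.18 to -0.97, with unadjusted limma p values of 0.018 to 0.034 and an adjusted p of 0.80 at each. Without vehicle replicate 1, that of A_30_P01024606 was -0.78, and without vehicle replicate 2 it was -1.58.

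On chromosome 3, 6 tested probes of the overlapping intervals chr3:21964899-21974524 and chr3:21973306-21974266 (mm9, strand R) were all higher with AP. Probe A_30_P01032887 was at 1.94, 1.98, 3.43 and 2.71, and A_30_P01022266 at 1.86, 1.95, 3.27 and 2.57. The vehicle-treated mice were close to each other and AP 1 was the highest array at each probe. Log2 fold changes ran from 0.73 to 1.11, and 4 of 6 had an unadjusted p under 0.05 (limma, adjusted p of 0.80).

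In 3 other regions of 1 direction, a single mouse carried the difference. The 3 probes of chr19:5834117-5835940 (mm9, strand R) had the lowest median of the regions of 1 direction outside chromosome 18, with log2 fold changes from -2.43 to -2.22 and all 4 mice well above background. However, A_30_P01025818 was at 1.88, -1.71, -2.55 and -2.13, so that only vehicle 1 was high, and without vehicle replicate 1 its log2 fold change was -0.64. A tested probe of an overlapping interval on the same strand, A_30_P01028538, was at -0.53, -0.23, -1.08 and -0.18, with groups that overlapped. The 3 probes of chr5:152006587-152008784 (mm9, strand R) were not well above background in AP 1 alone, with medians of -2.79, -1.73, -5.80 and -2.08. They entered through the vehicle group alone, so that the filter favoured a lower level with AP. The median of their log2 fold change was -1.53 with all mice and 0.23 without AP replicate 1. The 2 tested probes of chr10:69679644-69682458 (mm9, strand F) were not well above background in vehicle 1 alone, with medians of -5.23, -0.62, -0.98 and -1.89. Both entered through the AP group alone, so that the filter favoured a higher level with AP. The order of the mice there was that of the skeletal muscle genes, lowest in vehicle 1 and highest in vehicle 2, whose part in this value was not tested.

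The remaining regions of 1 direction held 2 tested probes each. At chr17:88466300-88495175 (mm9, strand F), A_30_P01030632 was at -2.70 and -3.39 with AP and A_30_P01031808 at -2.78 and -3.33. Neither was well above background in a vehicle-treated mouse, and they were at least 1.68-fold and at least 1.67-fold higher with AP. Both entered the comparison through the AP group alone, so that a higher level with AP followed from the filter. A brighter probe of a shorter interval within this region on the same strand, A_30_P01029247, was at 2.24, 2.06, 1.80 and 1.81, lower in both AP-treated mice with a log2 fold change of -0.34. At chr9:56910620-56919667 (mm9, strand F), A_30_P01022302 was at -1.70 and -2.22 with vehicle, was not well above background with AP and was at least 3.34-fold lower there. It entered through the vehicle group alone, so that a lower level with AP followed from the filter. The other tested probe of that region, A_30_P01021387, was at -2.88, -3.38, -3.42 and -2.93, with groups that overlapped.

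Within some regions the probes went in opposite directions. In chr1:69531191-69570566 (mm9, strand R), A_30_P01017578 was at -2.75, -1.77, -3.60 and -3.75 and A_30_P01027585 at -2.40, -2.04, -3.40 and -3.18, both lower with AP. By contrast, A_30_P01021299 was not well above background in either vehicle-treated mouse and was at least 1.85-fold higher with AP, at -2.85 and -2.96. All 4 tested probes of this region entered the comparison through 1 group alone, so that their directions followed from the filter. In chr17:29183003-29217681 (mm9, strand R), A_30_P01020960 and A_30_P01027010 were at least 1.57-fold and at least 1.68-fold higher with AP. Both entered through the AP group alone, so that a higher level with AP followed from the filter. A_30_P01022528 and A_30_P01022991, which were detected in all mice, had log2 fold changes of -0.06 and -0.39. Of the tested probes of a shorter interval within this region on the same strand, A_30_P01021480 was detected in all mice at -2.67, -2.16, -1.83 and -1.54, with the AP group above. A_30_P01019784 was at -2.55 and -2.24 with AP and not well above background in either vehicle-treated mouse, so that it also entered through the AP group alone.

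Among members well above background in all 4 mice, 153 had groups that did not overlap and an unadjusted p under 0.05. Of these, 56 were higher with AP (1.74%, against 2.95% of all probes detected in all 4 mice) and 97 lower (3.01%, against 2%). The 11 of them on chromosome 18 are not reported here by name, and among the others the largest difference upward was that of A_30_P01018142 in chr5:106982442-107045717 (mm9, strand R), at -2.83, -3.74, -2.16 and -1.78. AP exceeded vehicle by 1.31 ± 0.38 (standard error) on the log2 scale, a 2.49-fold difference. A_30_P01022007 in chrX:93154123-93164481 (mm9, strand F) followed at -2.74, -2.69, -1.17 and -1.73, a log2 fold change of 1.26 ± 0.27. With normexp, the log2 fold changes of A_30_P01018142 and A_30_P01022007 were smaller, at 0.49 and 0.55. Brighter members were A_30_P01025521 in chr6:92040526-92041319 (mm9, strand F), at 4.51, 4.28, 5.99 and 5.15, and A_30_P01020464 in chr5:52461266-52541416 (mm9, strand R), at 3.88, 3.73, 5.42 and 4.47. In both, the vehicle-treated mice lay close together and AP 1 was the higher AP-treated mouse. Their log2 fold changes with normexp were 1.17 and 1.05. The 10 largest upward differences ran from 1.03 to 1.31 on the log2 scale, each with an adjusted p of 0.80 (limma).

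Regions of these members did not always move as a whole. On chromosome 11, A_30_P01026590 and A_30_P01030269, from overlapping intervals on strand R, had log2 fold changes of 1.09 and 1.03, and 4 of 5 tested probes of the locus were higher. On chromosome 13, A_30_P01033354 was at 1.89, 1.70, 3.37 and 2.44 with a log2 fold change of 1.11, whereas both other tested probes of its region were lower with AP. On chromosome 1, A_30_P01032773 had a log2 fold change of 1.06 and the other tested probe of its region one of -0.92. In the region of A_30_P01020464, A_30_P01031790 was at 0.92, 0.96, 0.51 and 0.58, lower in both AP-treated mice with a log2 fold change of -0.39. A_30_P01024676 of that region, well above background on only 2 arrays, had one of 0.77. A_30_P01024848, whose interval overlaps that of A_30_P01018142 on the same strand, had one of -0.10.

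In the other direction, A_30_P01026264 in chrX:50400250-50410825 (mm9, strand F) was at -0.68, -0.85, -2.01 and -2.78. Both AP-treated mice were below both vehicle-treated mice, and the log2 fold change was -1.63 ± 0.33, between -2.01 and -1.24 with each mouse left out. With normexp it was smaller, at -0.56. A second tested probe of the region had a log2 fold change of -0.09. On chromosome 2, both tested probes of chr2:177789718-177813140 (mm9, strand R) had a p under 0.05, with log2 fold changes of -1.46 and -0.89. The 10 largest downward differences ran from -1.63 to -1.11, each with an adjusted p of 0.80 (limma).

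At chr8:119732348-119749198 (mm9, strand F), all 9 tested probes, and all 12 of the locus with overlapping intervals, were lower with AP, but 1 of them had an unadjusted p under 0.05. That probe, A_30_P01022396, was at -1.07, -0.02, -2.19 and -1.59. A_30_P01025839 of the same region was at 1.13, -0.05, 0.10 and 0.07, so that vehicle 1 was high and the other mice were alike.

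A further 48 members were well above background in both AP-treated mice and in neither vehicle-treated mouse (1.25%, against 0.521% of all probes tested), and 132 in both vehicle-treated mice and in neither AP-treated mouse (3.45%, against 1.39%). Of the 46 and 129 of these outside chromosome 18, the bound on the fold was at least 2 at 11 and 10, with medians of 1.66-fold and 1.36-fold. All of these members entered through 1 group alone, so that their directions followed from the filter. The tested lincRNA probes were also dimmer, with median levels of -1.61, -1.73, -1.79 and -1.69, against 0.27, 0.25, 0.28 and 0.28 over all probes tested. The part of brightness in the shares above was not tested. The largest bound was that of A_30_P01023668 in chrX:92139043-92140820 (mm9, strand R), at -1.38 and -1.48 with AP and at least 5.13-fold higher than with vehicle. A_30_P01022144 in chrX:146827709-146913398 (mm9, strand F) was at -1.81 and -1.68 with AP and at least 3.89-fold higher. However, 1 of the 3 tested probes of its region was lower with AP, and their median log2 fold change was 0.47. With vehicle, A_30_P01020278 in chr15:85299777-85300166 (mm9, strand R) was at -0.10 and -2.91 and at least 4.58-fold higher than with AP, a value that vehicle 1 carries. The other tested probe of its region had a log2 fold change of 0.28. The adjusted p was 0.80 (limma) for A_30_P01023668, A_30_P01022144 and A_30_P01020278.

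The 57 probes named by an RNA stood for 12 RNAs, of which 8 had a tested probe, 23 probes in all. For NEAT1, which builds the nuclear bodies called paraspeckles, all 5 probes were well above background in all mice and had log2 fold changes of 0.64 to 0.89. Probe A_30_P01025798 was at 3.63, 4.92, 4.07 and 5.98. AP 2 was the highest and vehicle 1 the lowest array at each of the 5 probes, and the groups overlapped. A Neat1 probe outside the lincRNA class gave 3.66, 4.95, 4.09 and 6.13 and a log2 fold change of 0.80 ± 0.82. Without AP replicate 2 the median of the 5 probes was -0.24.

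NEAT2, the nuclear speckle RNA Malat1 whose promoter is printed above, was measured by 3 probes with log2 fold changes of -0.61 to -0.13. Probe A_30_P01031072 was at -0.34, -0.28, -1.25 and -0.58, with AP 1 low and groups that did not overlap (adjusted p of 0.80, limma). The Malat1 probe of the other class gave -0.14, and the median of the 3 probes was 0.06 without AP replicate 1. TUG1, a lincRNA found in many tissues, had 5 tested probes with log2 fold changes of -0.18 to -0.01, and 3 other Tug1 probes ranged from 0.05 to 0.10, all within the spread between mice. NRON, which binds the complex that holds the transcription factor NFAT in the cytoplasm, was tested at 2 of its 5 probes. It was lower in both AP-treated mice at both of these. A_30_P01025636 was at -0.66, -0.74, -1.19 and -1.17, with a log2 fold change of -0.48 ± 0.20 (adjusted p of 0.80, limma), and A_30_P01029993 had one of -0.46.

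H19, the imprinted maternally expressed RNA, had 4 tested probes, at 3 of which vehicle 1 was not well above background, and the mice of the vehicle group lay at both ends. Those 3 entered through the AP group alone, so that the filter favoured a higher level with AP there. Probe A_30_P01021588 was at -3.63, 0.88, -0.33 and -1.45, and A_30_P01025068 at -2.26, 0.42, -0.83 and -1.87. The order of the mice, lowest in vehicle 1 and highest in vehicle 2, was again that of the skeletal muscle genes, whose part in this value was not tested. Without vehicle replicate 1, the median log2 fold change of H19 was -1.71, and with it the median of 0.33 rests on signals near background. KCNQ1ot1, the antisense RNA of the Kcnq1 imprinted domain, was tested at 2 of its 5 probes. Their log2 fold changes were -0.45 and -0.15, and a probe of the other class gave -0.31.

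LincP21, the RNA also known as Trp53cor1 that was described as a p53 target beside Cdkn1a, was tested at 1 of its 5 probes. A_30_P01023928 was at -3.53 and -3.34 with AP, was not well above background in either vehicle-treated mouse and was at least 1.27-fold higher with AP (adjusted p of 0.80, limma). It entered through the AP group alone, so that a higher level with AP followed from the filter. HOTAIR, an RNA of the HoxC cluster, was detected by 1 of 5 probes, at -1.82, -1.75, -1.96 and -2.08. PINC, TSIX, XIST and BRN1-A had 0 tested probes. The 5 probes that the design places at chr17:12941161-12944859 (mm9) without a strand had log2 fold changes of -0.76 to -0.54 with AP 1 low, and A_30_P01022641 was at -1.65, -1.72, -3.14 and -1.74.

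For comparison, known long noncoding RNA genes were looked up among the probes of the other class. Of 55 genes listed, 31 were found and 25 were tested, with 14 higher and 11 lower with AP and a median log2 fold change of 0.05, against -0.012 over all probes. At an unadjusted limma p under 0.05, 4 were higher and 1 was lower. The 4 were host genes of small nucleolar RNAs, led by Snhg12, at 1.26, 1.23, 3.19 and 3.62 (log2 fold change 2.16 ± 0.24), and Snhg1, at -0.51, -0.38, 1.48 and 1.22, and in both the groups did not overlap. The 1 lower gene was Mirg, a maternally expressed microRNA host transcript, with a log2 fold change of -1.03 ± 0.24. None passed the adjusted threshold (adjusted p of 0.80, limma), and no probe of these 5 genes was named on the lincRNA class.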

How the data were processed

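One-color Agilent SurePrint G3 arrays measured BAT RNA of 2 vehicle-treated and 2 AP-treated Tg mice. The authors extracted the scans with Agilent Feature Extraction 10.7.1.1 (from the submitters' processing notes) and deposited the background-subtracted intensity of each spot, with flags, and without normalization between arrays. The authors also deposited processed log2 values of the same arrays, which were used as an alternative. Their scale matched log2 (slopes of 0.999 to 1.00 for array differences over 24865 probes), their centring per probe is not stated, and their medians by array were -0.309, -0.172, -0.442 and -0.325.

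Each signal was set against the array's own 75th percentile (118.9, 158.7, 127.6 and 118.5) on the log2 scale. Control spots and outlier-flagged spots were left out, which removed 1 lincRNA probe that had passed the filter. On the arrays, 46.4 to 49.0% of spots were well above background, and the number of mice limits the precision. Groups were compared over all 24970 probes by moderated linear models (limma 3.58.1, R 4.3.3) and Benjamini-Hochberg adjustment at 0.05, after tests on simulated data. Normexp, an alternative, was run on the median spot signal with an offset of 50. Fold changes are log2 differences between AP and vehicle.

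Named members, none from chromosome 18, were the 10 largest differences each way among members detected in all 4 mice with groups apart and p under 0.05, the 6 brightest, the 4 largest bounds, 6 regions of 1 direction, 2 of widest range and those named by an RNA. The members and the lists of genes were chosen with earlier results of these data known. Some members are summarised by range.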

Additional observations from a re-analysis of the deposited data

How the results depend on the processing

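In each of 15 other settings, 0 lincRNA probes passed the adjusted threshold, and the smallest adjusted p ran from 0.27 by the methods' t-test to 1.00 without AP replicate 1 (limma or that test). In a design where no probe passed, this says nothing of stability. Before adjustment, 288 lincRNA probes had a p under 0.05, and the count was 143 with normexp. It was 756 when dim probes were kept, which adds tests, 178 when every array had to detect the probe, which removes some, and 207 to 342 with a mouse left out. With 2-fold as well, 101 became 12, 383, 32 and, by the methods' t-test, 38, and 152 to 278 with a mouse left out, where the lone mouse is assumed to have the spread of the other groups. The median log2 fold change of -0.094 turned to 0.014 with normexp and 0.110 with no filter, was -0.0097 with the median of each array and -0.256 with the authors' log2 values, and ran from -0.153 to -0.034 with a mouse left out. With the median of each array and the authors' values, other probes were at 0.086 and -0.161. The difference between the classes was thus -0.095 in both, as in the main fit. This says nothing of stability, since such centring shifts the probes of an array nearly alike. The difference was 0.0015 with normexp, 0.025 with no filter and -0.119 to -0.050 with a mouse left out. Probes with both AP arrays above, 539, became 3666 with no filter, 304 with the authors' values and 836 to 1245 with a mouse left out. Those with both below, 1079, became 665 with normexp, 1912 with no filter and 1446 to 1885 with a mouse left out, since fewer arrays must be in order. With the median of each array the counts were 703 above and 755 below. The difference in detection, -1.87 percentage points, was -2.98 with the flag for positive and significant signal, and ran from -2.45 to -1.29 with a mouse left out. The causes not stated were not tested.

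Of 47 named values, some turned direction. With a mouse left out, A_30_P01025225 ran from -0.25 to 0.014, A_30_P01022075 from -0.39 to 0.014, A_30_P01020128 from -0.22 to 0.040, the chr5:152006587-152008784 region from -3.29 to 0.23, the chr10:69679644-69682458 region from -0.82 to 3.79, H19 from -1.71 to 2.20, NEAT1 from -0.24 to 1.78, NEAT2 from -0.87 to 0.064 and TUG1 from -0.37 to 0.22. H19 was also -0.10 with normexp and -0.43 over the probe detected on all arrays, TUG1 was 0.018 with the median of each array, and the chr17:29183003-29217681 region, at 0.73, was -0.23 with probes detected on all 4 arrays and -0.22 with the authors' values, where the probes not detected with vehicle drop out or differ in number.

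The sample labels give replicate numbers and state no pairing of mice across the groups. Deviations of same-numbered mice correlated at -0.13 over all probes and at -0.025 over the lincRNA probes tested. With so few mice per group, these correlations cannot show whether same-numbered mice were paired. With the replicate block, 0 lincRNA probes passed the adjusted threshold and 254 had a p under 0.05. The crossed pairing, chosen after the data were seen, gave 0 and 283.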
